A study of Brassica oleracea var. italica with 2 samples.

Results

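miR394 and miR396 are conserved plant miRNA families that act on growth and on the shoot meristem. Their members were taken as all records of the deposited table of known miRNAs whose name carries miR394 or miR396, whatever the species prefix, letter or star. By this rule, 33 of 1400 records belonged to the 2 families, 8 to miR394 and 25 to miR396. A raw count of reads was given for 4 of the 33, out of 169 records with counts in the whole table, and the 4 were 2 of miR394 and 2 of miR396. The other 29 records had a name, a sequence and a position but no count.

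The counts came from small RNA of broccoli shoot apexes, with 1 library of a heat-tolerant line (HT, high curd-forming capacity, CNE plants) and 1 library of a heat-sensitive line (HS, low curd-forming capacity, CNL plants). Plants of both lines were 54 days old by the labels. The study's methods give a somewhat higher age, and its results a somewhat lower one in days after germination. The 22 in both sample titles is read here as the growth temperature in °C, which the methods state for both lines. The lines are described as isogenic or nearly isogenic, and neither the number of plants behind a library nor any replicate was given in the sources used here. Each test therefore compares the reads of 2 libraries and not the genotypes, no difference has a replicate check, and the tissue label was not checked, since the table holds no marker mRNA. The libraries held 27069903 reads (HT) and 26253036 reads (HS). The counts of the 169 known miRNA records with counts summed to 38431 (HT) and 28582 (HS). The paper reports far more reads as known miRNAs in each library, so these sums are a small part of that pool.

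In Arabidopsis, miR394 is made in the outermost cell layer of the shoot meristem and moves inwards, where it represses the F-box gene LEAF CURLING RESPONSIVENESS and so keeps the cells below competent as stem cells. The same pair also acts in leaf shape. miR396 represses GROWTH-REGULATING FACTOR (GRF) transcription factors, which drive cell proliferation in young leaves and in meristems together with their GIF coactivators, and in Arabidopsis the TCP factors under control of miR319 raise miR396 as leaf cells stop dividing.

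The mature sequences with a count are shown first, because the names alone do not tell which family sequence was read. They are printed 5′ to 3′ in DNA letters as deposited, with the seed (bases 2 to 8) in capitals.
ath-miR394a: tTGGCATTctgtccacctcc
vvi-miR394a: tTGGCATTctgtccacctcctt
zma-miR396g: tCCCACAGctttattgaaccg
gma-miR396e: tTCCACAGctttcttgaacttt

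Both miR394 records had the same seed and the same first 20 bases, and the longer vvi-miR394a carried further bases at its 3′ end. The ath-miR394a read equalled its miRBase entry. The vvi-miR394a read differed from the grapevine entry by A21T, with the miRBase base first and positions counted from the 5′ end. Positions refer to the B. rapa sequence version 1.1 of the authors' table, as given there, where the end minus the start equals the length in all 33 records. The ath-miR394a record was placed on A06 from 8184924 to 8184944 (plus strand), and vvi-miR394a on A07 from 9184962 to 9184984 (minus strand). Each record was listed with 1 position, which need not be the only fit. The A07 stretch of vvi-miR394a also holds all 20 bases of ath-miR394a, so from which place the ath-miR394a reads came is not settled. No annotation of that genome was used here, so whether these positions lie in a gene, exon or intron is not stated.

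The 2 miR396 records with counts did not share a seed. To show how they relate to the canonical family, the Arabidopsis-type sequences that the table lists without a count are given in the same way.
ath-miR396a: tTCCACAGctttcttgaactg
ath-miR396b: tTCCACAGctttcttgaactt

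The gma-miR396e record, with 22 bases, equalled ath-miR396b over all of that record's 21 bases and ended 1 base later at the same place of A08 (8311805 to 8311827, minus strand, against 8311806 to 8311827). The zma-miR396g record differed from ath-miR396a at T2C, C13A and T20C, with the ath-miR396a base first, and the first of these lies in the seed. Both counted sequences also departed from the miRBase entries they are named after, gma-miR396e by G21T and zma-miR396g by T20C, with the miRBase base first. The match of gma-miR396e to ath-miR396b at base 21 and the T20C of zma-miR396g therefore belong to the deposited sequences and not to those entries. Seed TCCACAG stood on 10 of the 25 miR396 records, and gma-miR396e was the only one of the 10 with a count.

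miR394 was the better covered family, and both of its counted records had more reads in HT than in HS. The ath-miR394a record had 102 reads in HT, or 3.77 TPM (reads of the record per 1000000 reads of the library), against 55 reads or 2.10 TPM in HS. The 95% confidence intervals (CI, exact Clopper-Pearson) ran over 3.07 to 4.57 TPM for HT and over 1.58 to 2.73 TPM for HS. They did not overlap. Amplified reads with no molecular identifier are not independent molecules, so these intervals and floors hold for counting error alone. The fold change (HT/HS) was 1.80 (95% CI 1.28 to 2.54), with p = 0.000412 by Fisher's exact test (two-sided, the record's reads beside all other reads of the 2 libraries) and 0.00211 after Benjamini-Hochberg adjustment over the 169 records. By level, the record was number 37 in HT and number 49 in HS among the 169, whose median level was 0.259 TPM (HT) and 0.267 TPM (HS).

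The vvi-miR394a record had 92 reads in HT (3.40 TPM, 95% CI 2.74 to 4.17), against 58 reads in HS (2.21 TPM, 95% CI 1.68 to 2.86), and the 2 intervals overlapped slightly. Its fold change was 1.54 (95% CI 1.1 to 2.18; p = 0.0111, Fisher's exact test; adjusted p = 0.0428). The 95% CIs of the 2 fold changes overlapped over most of their range. The sequence of ath-miR394a is contained in that of vvi-miR394a, and whether 1 read could be counted on both records is not given in the sources used here. In the whole table, 13 sequences stood on more than 1 counted record, 31 records in all, and most of these records had counts close to those of the others with the same sequence. The sequence shared by smo-miR156b, ath-miR157a and mtr-miR156g, for example, had between 650 and 687 reads in HT, against 241 to 242 in HS. An exception was the pair crt-miR166a and crt-miR166b, with 1245 and 24 reads in HT, against 1273 and 7 in HS. The 2 miR394 records are therefore not taken as independent measurements.

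**Figure D1:**
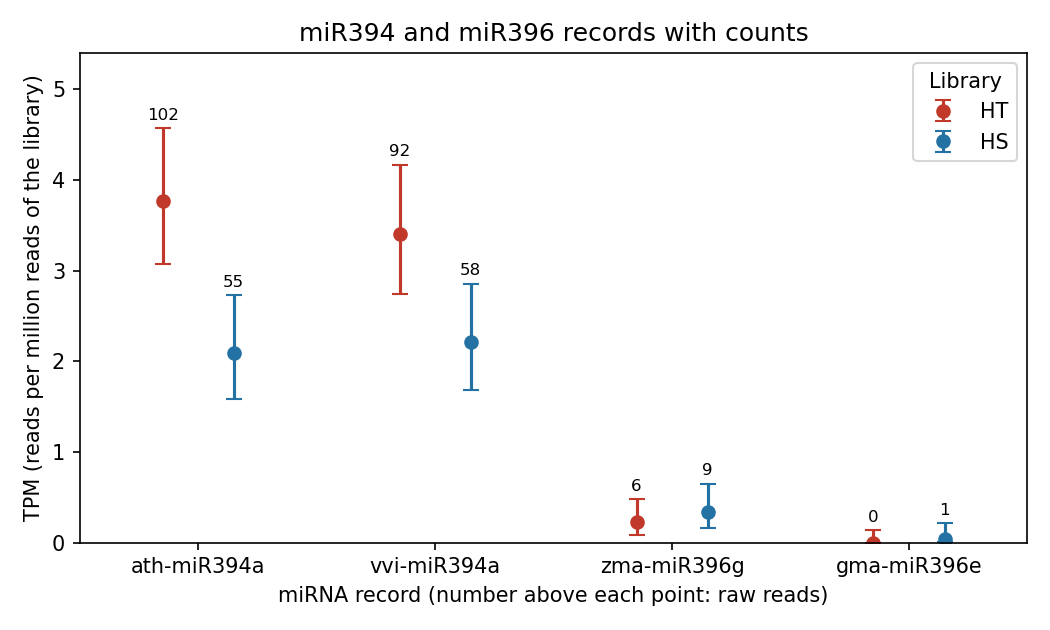
Level of each miR394 and miR396 record with a count, in TPM on the y axis, in the HT (red, left) and HS (blue, right) libraries; points are single libraries, bars are 95% exact Clopper-Pearson intervals of counting error, and raw reads stand above. The miR394 records had 102 and 92 reads in HT against 55 and 58 in HS, and no miR396 record had more than 9 reads.

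With both records summed, miR394 had 194 reads in HT (7.17 TPM, 95% CI 6.19 to 8.25), against 113 reads in HS (4.30 TPM, 95% CI 3.55 to 5.17). The fold change of the sum was 1.67 (95% CI 1.31 to 2.12), and Fisher's exact test gave p = 1.32e-05. This interval and this p take each read as counted once. If reads were counted on both records, the interval is too narrow and the p too small, and the values of ath-miR394a alone stand in place of the sum. Records were called at an unadjusted p under 0.001 together with a fold change over 2 in either direction. By this rule 0 of the 4 members were called, where 12.4% of the 169 records were called in either direction. By p alone, 1 of the 4 members, ath-miR394a, passed and was higher in HT, against 13.6% of all records that passed in that direction and 20.1% in both. At an adjusted p under 0.05, both miR394 records were higher in HT, as were 34 records or 20.1% of the table.

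Whether miR394 passed the threshold of 0.001 depended on the library size used. Read as a share of the summed counts of the 169 records, miR394 made up 0.505% in HT and 0.395% in HS. This was a fold change of 1.28 (p = 0.0428, Fisher's exact test), which does not pass 0.001. These are not shares of all known miRNA reads, which the paper puts far higher. Where counted records share a sequence, 1 read may also stand in the summed counts more than once, so this library size is itself uncertain. On the same scale ath-miR394a had a fold change of 1.38 (p = 0.0628, Fisher's exact test). Most well-covered records were also above 1 with all reads of the library as its size: 69 records had at least 50 reads over HT and HS, 46 of these had a fold change over 1, and their median was 0.37 on the log2 scale. The log2 fold change of ath-miR394a was 0.85 and that of vvi-miR394a 0.62. Of the 69 records, 16 had a larger fold change than ath-miR394a and 23 a larger one than vvi-miR394a.

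**Figure D2:**
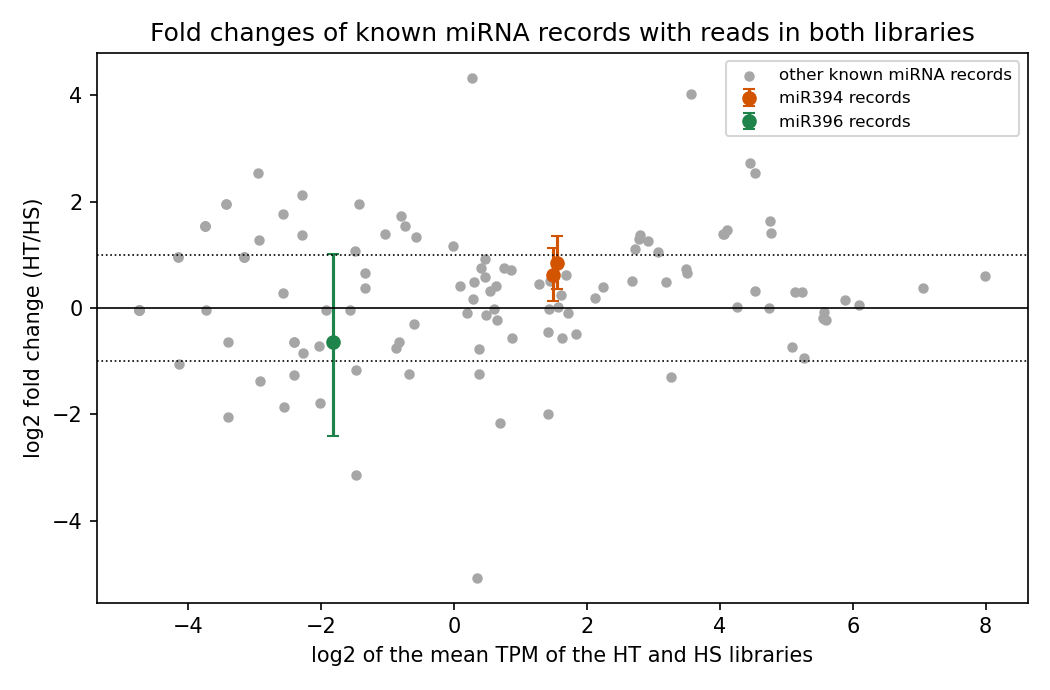
log2 fold change (HT/HS, y axis) against the log2 of the mean TPM of both libraries (x axis) for the 119 known miRNA records with reads in both libraries; bars on the coloured points are 95% exact intervals and dotted lines mark a fold change of 2. Both miR394 records lie between 0 and the upper dotted line, at 0.85 and 0.62, among many grey points, and the interval of zma-miR396g spans 0.

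The records closest to ath-miR394a in fold change, among those of other families with at least 50 reads, were 3 of miR156, the family that holds back the change from juvenile to adult growth. They were smo-miR156d (fold change 1.90, 49 reads in HT against 25 in HS), bgy-miR156 (1.68, 45 reads in HT against 26 in HS) and zma-miR156k (1.68, 57 reads in HT against 33 in HS). The likeness is the difference of log2 fold changes between 2 libraries, 0.08 for the first and -0.10 for each of the others, and the intervals of these records are wide, as for bgy-miR156 (95% CI 1.01 to 2.83). The next record, tae-miR167b (382 reads in HT, against 222 in HS), was nearly as close, with a difference of -0.11. The likeness does not extend to miR156 as a whole, since the miR156 record with most reads, smo-miR156b, had 687 reads in HT against 242 in HS and a fold change of 2.75 (95% CI 2.37 to 3.20).

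The 2 counted miR396 records had few reads in both libraries. The zma-miR396g record had 6 reads in HT (0.222 TPM, 95% CI 0.0813 to 0.482), against 9 reads in HS (0.343 TPM, 95% CI 0.157 to 0.651). The fold change of 0.647 had a 95% CI of 0.189 to 2.03 (p = 0.448, Fisher's exact test), an interval that holds both 1 and the 1.67 of miR394, so that a difference was not detectable at this depth. The gma-miR396e record had 0 reads in HT, and the exact 95% interval reaches 0.136 TPM. It had 1 read in HS (0.0381 TPM, upper bound 0.212 TPM). Both counts are under the floor of 3 reads set for a fold change (0.111 TPM in HT, 0.114 TPM in HS), and none is given.

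Summed, the counted miR396 records had 6 reads in HT and 10 reads in HS, a fold change of 0.582 (95% CI 0.174 to 1.77; p = 0.326, Fisher's exact test). Between the best covered record of each family, ath-miR394a had 17.0 times the reads of zma-miR396g in HT and 6.11 times in HS. The ratio between these was 2.76 with an exact 95% CI of 0.829 to 9.96 (p = 0.0903, Fisher's exact test), a comparison that needs no library size and that did not pass 0.05. For the sums of the counted records the same ratios were 32.3 in HT and 11.3 in HS, and the ratio between them was 2.85 (exact 95% CI 0.911 to 9.81, p = 0.0613, Fisher's exact test). These are ratios of the 4 counted records and not of the families, since most miR396 records had no count.

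Within a library, the order of the 2 miR394 records was not settled, and both lay well above the counted miR396 records. By tests that take each read as counted once, ath-miR394a and vvi-miR394a in HT, with 102 and 92 reads, could not be told apart by counting error (adjusted p = 0.622, exact binomial test, 6 comparisons), nor could vvi-miR394a and ath-miR394a in HS with 58 and 55 reads (adjusted p = 0.851, same exact test). The step to zma-miR396g was large, with an adjusted p of 4.26e-20 in HT and 1.06e-08 in HS by the exact binomial test. Between zma-miR396g and gma-miR396e the step was 6 to 0 reads in HT and 9 to 1 in HS. The adjusted p was 0.0469 in HT and 0.043 in HS by the exact binomial test. Both are under 0.05, but gma-miR396e is under the floor of 3 reads in both libraries, so these records are not ranked.

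Of the miR396 reads, 6 of 6 in HT and 9 of 10 in HS were counted on zma-miR396g, whose strand differs from that of its neighbours. It lies on the plus strand of A09 from 4036197 to 4036218, and 4 records named as star or 3p strands (aly-miR396a*, zma-miR396b*, zma-miR396f* and gma-miR396a-3p) lie on the minus strand of the same stretch. The 2 sequences below show the 19 positions that zma-miR396g and aly-miR396a* (4036195 to 4036216) share, in capitals, which are reverse complements of each other.
zma-miR396g: TCCCACAGCTTTATTGAACcg
aly-miR396a*: GTTCAATAAAGCTGTGGGAag

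The miRNA* is the strand that pairs with the mature miRNA in the precursor. The mature records of this place lie on the minus strand, and ath-miR396a among them (4036308 to 4036329) lies 92 bases from aly-miR396a*. The 6 reads in HT and 9 reads in HS were thus counted on the strand opposite to all other records of this place but zma-miR396g*, with a sequence that differs from ath-miR396a at 3 of 21 bases. Of the 169 records with counts, 10 overlapped a listed record on the other strand, and 7 of these 10 had fewer than 10 reads in both libraries together, as had 74 of all 169. From which strand or place the reads were transcribed was not tested.

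**Figure D3:**
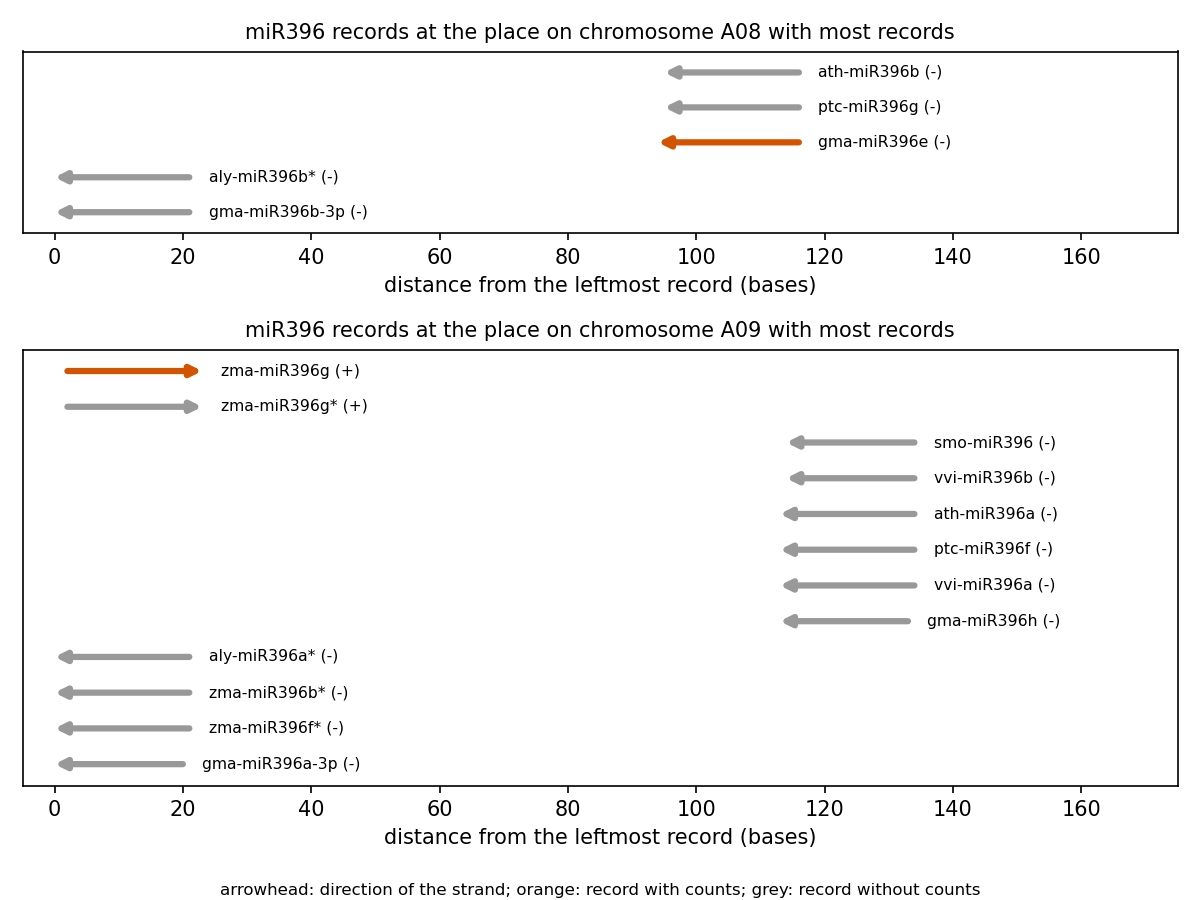
Positions of the miR396 records at the A08 place (top) and the A09 place (bottom) with most records, as distance in bases from the leftmost record; arrows point along the strand, orange marks a record with counts and grey one without. On A09 the only counted record, zma-miR396g, runs against the 4 star or 3p records at overlapping positions. The star record aly-miR396a* lies 92 bases from the mature record ath-miR396a.

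Counts covered the mature sequence of miR394 but hardly that of miR396. A count was given for 2 of 8 miR394 records and 2 of 25 miR396 records, beside 12.1% of all 1400 records. Neither ath-miR396a nor ath-miR396b, whose sequences equalled their miRBase entries, had a count. A missing count does not stand for 0 reads, because zma-miR396g* has the sequence and position of zma-miR396g and no count. It was the only uncounted record of the 29 whose sequence stood on a counted record. The counts used here therefore give no level for ath-miR396a or ath-miR396b in these apexes.

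The 25 miR396 records held 15 distinct sequences at 8 places of the genome, and the 8 miR394 records held 6 at 6 places. The place on A09 from 4036195 to 4036329 held 12 records, and that on A08 from 8311711 to 8311827 held 5. On A08 the nearest mature and star records lay 73 bases apart. For miR394, 4 records with the seed GGTGGGC, star strands by name except gma-miR394b, lay on A02 (aly-miR394a* and zma-miR394a*, 14006225 to 14006245) and on A07 (aly-miR394b* and gma-miR394b, 14746980 to 14747000). Neither place was that of a counted mature miR394, so the table pairs no arms of a miR394 precursor. None of these 4 records had a count, nor had ptc-miR394a-3p on A05 or gma-miR394a on A10, whose sequences shared no seed with any other member.

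A further group of 5 miR396 records, without counts, carried the form with an extra G known from grasses. The osa-miR396d sequence, with that base in capitals, is set beside gma-miR396h, which ends like ath-miR396a.
osa-miR396d: tccacaGgctttcttgaacgg
gma-miR396h: tccacagctttcttgaactg

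With this base left out, osa-miR396d differed from gma-miR396h only by T19G over 20 bases, with the gma-miR396h base first. At this same base the deposited osa-miR396d departs from its miRBase entry (T20G before the base is left out). The T19G is therefore a difference of the deposited sequence and not of the rice entry. The group lay at 3 places, on A01 (osa-miR396d and zma-miR396c), on A02 (osa-miR396f and sbi-miR396d) and on A09 (osa-miR396g, 26482815 to 26482836). The records osa-miR396d and osa-miR396g have the same sequence, which thus fits both A01 and A09. The opposite strand of A01 at zma-miR396c (586414 to 586436) is shown because a site that pairs with miR396 would read in this direction.
plus strand at zma-miR396c: ccgttcaagaaagcctgtggaa

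As background, the conserved site that miR396 recognises in GRF mRNAs of Arabidopsis pairs with it around a bulged base. Whether the A01, A02 and A09 positions of this group lie in GRF genes was not tested, since no annotation of this genome was used.

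Other miRNAs known for leaf growth and the shoot meristem (miR164, which limits organ boundary NAC genes; miR165 and miR166, which repress HD-ZIP III genes; miR170 and miR171, which act on GRAS-type genes; miR319) had 37 records with counts. The 37 include star records, among them zma-miR166k*, zma-miR166c* and aly-miR170*, so the values of the list are not those of mature miRNAs alone. By p under 0.001 alone, 4 of the 37 were higher in HT and 3 lower, and 1 of the 37, zma-miR166k* (21 reads in HT, against 48 in HS), was called. Among all 169 records, 13.6% were higher and 6.51% lower by p alone, and 4.14% were called lower. Of the records past p, ath-miR165a and mtr-miR166d (both higher) share 1 sequence, as do gma-miR166j-3p and osa-miR166g (both lower). The median log2 fold change of the 22 with at least 50 reads was 0.02, beside 0.37 for all 69 such records. The most abundant was vvi-miR319g, which had 8313 reads in HT, against 5306 in HS. Its fold change was 1.52 (95% CI 1.47 to 1.57; p = 2.97e-128, Fisher's exact test), and 1.17 with the summed counts of the 169 records as library size. The records with most reads of the other families were osa-miR164d (4063 reads in HT and 3048 in HS), zma-miR166c* (1885 and 1757), ath-miR165a (1052 and 826), aly-miR170* (524 and 498) and smo-miR171a (89 and 73). Of these, zma-miR166c*, aly-miR170* and smo-miR171a had fold changes of 1.04, 1.02 and 1.18 that did not pass (p = 0.233, 0.754 and 0.307, Fisher's exact test). With the summed counts of the 169 records as library size, 1 record of the list was higher and 9 were lower by p under 0.001. The fold changes of osa-miR164d (1.29) and ath-miR165a (1.24) then turned to 0.991 and 0.947. On the same scaling, ath-miR394a and vvi-miR394a had fold changes of 1.38 and 1.18.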

How the data were processed

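Small RNA of broccoli shoot apexes was sequenced in 1 library per genotype. The authors removed adaptors, low-quality reads and reads matching other non-coding RNAs, and matched the rest by BLASTN to plant miRNAs of miRBase. Their sources name different miRBase releases, and the aligner to the B. rapa sequence is not given in the sources used here. The deposited raw counts are whole reads per record, and the deposited TPM values are these counts per 1000000 reads of the library. Library totals were recovered from their quotient. They equal the paper's totals of all reads, so reads matching other non-coding RNAs are included in them. The paper gives such reads a larger share in HT than in HS. The columns of the authors' own comparison (log2 fold changes, p-values and q-values) and the tables of candidates were not used. Line breaks inside the quoted header of the table kept these units from being checked by code, and they were read from the header and the values instead.

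The libraries were compared with Fisher's exact test, two-sided, on a record's reads and all other reads (scipy 1.17.1), over all 169 records with counts, with exact Clopper-Pearson intervals at the 95% level. The p threshold (0.001) is that of the study for known miRNAs and the fold change threshold (2) that for its candidates. No count model with dispersion was fitted, since 1 library per genotype gives no spread. The test was checked on simulated libraries that differed by counting error and by planted fold changes larger than those of miR394. That check therefore does not bear on variation between replicate libraries or on fold changes as small as those of miR394. Named records were all counted records of both families, the 3 of other families nearest in log2 fold change to the miR394 record with most reads, and the record with most reads of each family in the growth and meristem list. The uncounted records, zma-miR166k*, the records that share a sequence, tae-miR167b, smo-miR156b and the comparison of positions were chosen after their values were seen. The members and lists were chosen with earlier results of these data known. Alternatives changed the library size, the filter on reads, the thresholds, the records summed and a pseudocount of 1 read.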

Additional observations from a re-analysis of the deposited data

How the results depend on the processing

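No miR394 or miR396 fold change with a value reversed its direction under the alternatives run. The miR394 sum, 1.67 with all reads of the library and each read taken as counted once, was 1.28 on the sum of deposited counts as library size (p = 0.0428, exact test) and 1.29 on a median of ratios (p = 0.0329, exact test), which shift all log2 fold changes by -0.38 and -0.37. Neither p passes 0.001. The sum of deposited counts may hold a read more than once where counted records share a sequence. Likewise ath-miR394a had 1.38 and 1.39 (p = 0.0628 and 0.0527, Fisher's exact test). The number of called records, 21, moved beyond 1.5 times only with a fold change threshold of 3, to 10. With a threshold of 1.5 it was 27, the single alternative in which a member (ath-miR394a) was called. The 14 higher and 7 lower calls became 9 and 9 with the sum of deposited counts. Without zma-miR396g, an alternative chosen after seeing the data, miR396 kept 0 reads in HT and 1 in HS, and no fold change or ratio to miR394 could be given. No replicate could be left out, with 1 library per genotype. No paired analysis was possible because each genotype has 1 library. Low counts limit the values of the 2 counted miR396 records, and the family as a whole is limited by its 23 records without counts.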
